A study of Mus musculus with 14 samples.

Results

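Genome-wide maps of 3 histone marks, H3K4me1, H3K4me2 and H3K4me3 (lysine 4 of histone H3 with 1, 2 or 3 methyl groups), were compared with each other within untreated mouse embryonic stem (ES) cells. The maps were obtained by chromatin immunoprecipitation and sequencing (ChIP-seq), and were read as lists of peaks, the regions where a mark was enriched over input chromatin. Members were chosen by their labels: untreated cells and 1 of these 3 antibodies, which left 3 of the 14 libraries of the series, or 3 of the 10 with a peak list. They hold 119739 peaks of H3K4me1, 89538 of H3K4me2 and 52912 of H3K4me3. The cells were a blastocyst-derived line of strain C57BL/6J with the genotype Mll1fl/fl; Cre-ER TM, so both floxed Mll1 alleles and the tamoxifen-dependent Cre recombinase were present in all 3 libraries. No compound was given, and the Mll1 gene had therefore not been deleted by design. The cells were kept without feeders on Matrigel with LIF, 5% serum and 15% knockout serum replacement, fixed for 10 min in 1% paraformaldehyde, and precipitated with 2 µg of antibody per 20000000 cells.

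There was 1 library per mark, from 1 line, and all 3 were called against 1 input library. No comparison has a replicate, and no test across libraries could be made. After removal of duplicate tags (mapped reads) the libraries held 36.9 M tags for H3K4me1, 40.1 M for H3K4me2 and 25.3 M for H3K4me3, with M for 1000000. The share of tags inside peaks was 63.7% for H3K4me1, 71.3% for H3K4me2 and 82.5% for H3K4me3, and the lists covered 290, 191 and 91.4 Mb. Each mark was read with its own antibody, so a level of 1 mark and a level of another are not on a common scale. The comparisons below therefore rest on where peaks lie, and levels are read between places within a mark.

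The 3 states are steps of a single series. Methyltransferases of the Mll/Kmt2 and Setd1 complexes add methyl groups to H3K4, and the Kdm1 and Kdm5 enzymes remove them. In mammalian cells H3K4me3 is best known from the nucleosomes around active or poised transcription starts, H3K4me1 from enhancers and from the shoulders of promoters, and H3K4me2 from both. In ES cells, starts of silent developmental regulators commonly carry H3K4me3 together with the Polycomb mark H3K27me3, which was not measured in these libraries. A mark at a gene is not a measure of its expression.

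As a check of the label, the ends of 10 ES cell genes were read. All 3 marks lay on 9 of these 10, among them Pou5f1, Nanog, Sox2, Klf4 and Sall4, against 67.9% of all protein-coding genes. The 10th, Esrrb, had H3K4me1 and H3K4me2 at its outermost start and all 3 marks at another annotated start. Genes that mark other cells were not free of marks: all 3 lay on 5 of 9 fibroblast genes, 6 of 7 trophectoderm genes and 5 of 7 primitive endoderm genes. The summed H3K4me3 level was 1248 tags per M tags over the 10 ES cell genes, with single genes between 0 and 252. It was 149 over the fibroblast genes (0 to 63.7), 259 over the trophectoderm genes (0 to 147) and 282 over the primitive endoderm genes (0 to 78.9). Of the other cells' genes, Col3a1, Lum, Elf5 and Dab2 had no mark at either outer end. A 0 here and below means that no called peak of that mark lay within 1 kb; it is not a count of 0 tags.

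Sequences just before the gene start are shown for 6 genes, because the combinations of marks went with the CpG content of the start (described below). The genes were chosen after their values were seen, to show combinations of marks found at starts and a start with none. Each run is the 150 bases before the annotated start on the gene's own strand, from RefSeq promoters on GRCm38, with each CG dinucleotide in capitals. Trim71 (chr9:114564370-114564519, minus strand, 10 CG) and Nanog (chr6:122707339-122707488, plus strand, 1 CG) had all 3 marks. Rab25 (chr3:88548280-88548429, minus strand, 4 CG) had H3K4me1 and H3K4me2. Cbx3 (chr6:51470466-51470615, plus strand, 21 CG) had H3K4me2 and H3K4me3 at the outer end of the gene. Apoc4 (chr7:19681461-19681610, minus strand, 3 CG) had H3K4me1 alone, and Alb (chr5:90460720-90460869, plus strand, 2 CG) had no mark.
Trim71: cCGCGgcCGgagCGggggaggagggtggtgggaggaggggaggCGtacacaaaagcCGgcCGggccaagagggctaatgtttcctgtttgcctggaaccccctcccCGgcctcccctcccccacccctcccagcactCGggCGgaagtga
Nanog: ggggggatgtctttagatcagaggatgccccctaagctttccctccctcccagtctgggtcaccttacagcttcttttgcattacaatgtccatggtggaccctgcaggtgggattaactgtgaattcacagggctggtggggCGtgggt
Rab25: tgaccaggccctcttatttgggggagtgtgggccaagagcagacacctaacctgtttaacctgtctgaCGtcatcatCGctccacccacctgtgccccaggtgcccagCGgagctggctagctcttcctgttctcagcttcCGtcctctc
Cbx3: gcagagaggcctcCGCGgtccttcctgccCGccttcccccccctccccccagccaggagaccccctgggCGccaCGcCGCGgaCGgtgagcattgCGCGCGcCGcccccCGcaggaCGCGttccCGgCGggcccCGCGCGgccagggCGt
Apoc4: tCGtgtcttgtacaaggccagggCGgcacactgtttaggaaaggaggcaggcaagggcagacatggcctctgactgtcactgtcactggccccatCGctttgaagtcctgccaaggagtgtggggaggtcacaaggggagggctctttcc
Alb: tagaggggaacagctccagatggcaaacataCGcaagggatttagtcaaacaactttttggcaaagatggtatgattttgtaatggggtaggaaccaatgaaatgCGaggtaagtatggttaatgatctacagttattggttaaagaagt
Trim71 and Nanog carried the same 3 marks on starts with 10 and 1 CG dinucleotides. The Cbx3 window lies 462 bp inside the outer end of that gene, at its RefSeq start. An H3K4me1 peak that begins at chr6:51471322 comes within 1 kb of that RefSeq start, so H3K4me1 is absent at the outer end only.

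Gene ends with H3K4me3 nearly always had H3K4me2 and H3K4me1 as well. The 21887 protein-coding genes of GRCm38 (mm10) give 43774 gene ends, and a mark was assigned to an end when a peak came within 1 kb. All 3 marks lay on 18340 ends (41.9%, exact 95% Clopper-Pearson interval 41.4 to 42.4, counting error only), and no mark on 19225 (43.9%). H3K4me1 and H3K4me2 shared 2771 ends (6.33%), H3K4me1 was alone on 2601 (5.94%), H3K4me2 and H3K4me3 shared 472 (1.08%) and H3K4me2 was alone on 338 (0.772%). The remaining combinations were nearly empty, with 24 ends for H3K4me3 alone and 3 for H3K4me1 with H3K4me3. Of the ends with H3K4me3, 99.9% had H3K4me2 and 97.4% had H3K4me1. These are shares of ends with peaks of any size, and the number of ends with H3K4me2 and H3K4me3 depended strongly on the settings: 472 as called, 797 with a 500 bp window, 874 at a peak score of at least 100 and 4280 with lists cut to equal length, where 14279 ends had all 3 marks.

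Starts and far ends differed in their makeup. For 17492 genes the annotation gives the strand, and their outer boundaries were read as start and far end. None of them lies on chromosome 18, so all results on starts and far ends leave that chromosome out. Of these starts, 11394 (65.1%) had all 3 marks, against 3175 (18.2%) of the far ends. H3K4me1 with H3K4me2 lay on 496 starts and on 1687 far ends (9.64%), and H3K4me1 alone on 369 starts and 1690 far ends (9.66%). No mark lay on 4865 starts (27.8%) and 10647 far ends (60.9%). Genes with all 3 marks at the start had all 3 at the far end in 2756 cases (24.2%) and no mark there in 5666 (49.7%). Part of the far-end marks lay near another gene's start: a start within 2 kb was present for 775 of the 3175 far ends with all 3 marks (24.4%), for 4.45% of those with H3K4me1 and H3K4me2, and for 1.63% of those with no mark. Only the outer starts of the 17492 genes with strand were searched. Starts of other protein-coding genes, inner starts and starts of non-coding genes were not counted.

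**Figure D1:**
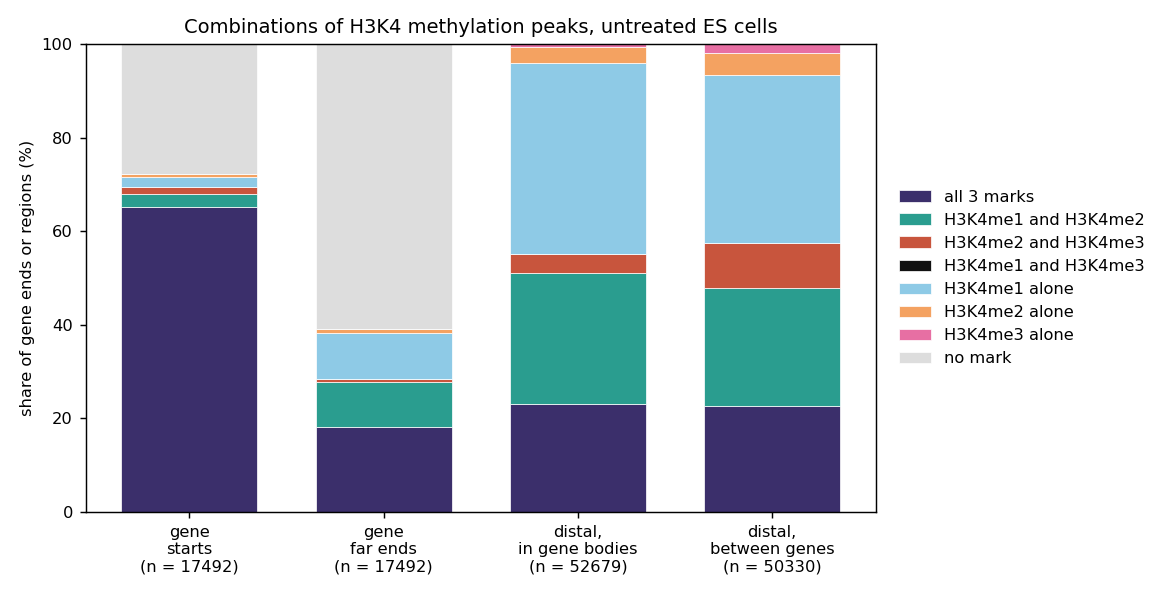
Share (%) of gene starts, gene far ends and distal regions (more than 1 kb from any gene end, in gene bodies or between genes) that held each combination of H3K4me1, H3K4me2 and H3K4me3; colours are combinations and bars start at 0. All 3 marks lay on 65.1% of starts and 18.2% of far ends, and H3K4me1 alone was the commonest combination of distal regions in the lists as deposited, with 40.7% in gene bodies and 36% between genes.

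The same nesting held in bases of the genome. Of the H3K4me3 peaks, 97.6% overlapped H3K4me2 (98.8% of their bases, 90.3 Mb), and 83.6% overlapped H3K4me1 (84.7% of bases, 77.4 Mb). Of the H3K4me2 peaks, 86.7% overlapped H3K4me1 (88.2% of bases, 169 Mb) and 54.3% overlapped H3K4me3. Of the H3K4me1 peaks, 65.2% overlapped H3K4me2 and 40.2% overlapped H3K4me3. H3K4me3 peaks without H3K4me1 were short. At gene ends they made up 204 of 935 peaks of at most 1000 bp (21.8%), 171 of 3862 peaks between 1000 and 2000 bp (4.43%) and 0 of 202 peaks above 8000 bp. Away from gene ends the shares in these classes were 41.5%, 10.3% and 3.33% (1 of 30).

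Peaks at gene ends were wider than those away from them, for each mark. The median width at gene ends was 2119 bp for H3K4me1, 2970 bp for H3K4me2 and 2515 bp for H3K4me3, and away from gene ends it was 1683, 1451 and 1099 bp. The share of a list that lay at gene ends was 21.6% for H3K4me1, 20.1% for H3K4me2 and 29.2% for H3K4me3. The level of a place is the number of tags in the peaks of a mark there, per M tags of its library. At gene ends with all 3 marks the median level was 7.81 tags per M for H3K4me1 (quartiles 4.61 to 14.1), 23 for H3K4me2 (14.8 to 34.2) and 38.8 for H3K4me3 (17.2 to 62.1). In distal regions with all 3 marks the medians were 4.8, 6.29 and 3.25 tags per M. The H3K4me3 medians at gene ends and in distal regions thus differed by more than those of H3K4me1.

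The medians of each mark were lower at gene ends with fewer marks, apart from the 3 ends with H3K4me1 and H3K4me3 (1.14 and 0.752 tags per M). At ends with H3K4me1 and H3K4me2 the medians were 6.13 and 3 tags per M. At ends with H3K4me2 and H3K4me3 they were 3.97 and 4.57. H3K4me1 alone had a median of 2.71, H3K4me2 alone 1.4 and H3K4me3 alone 1.25. The H3K4me2 median at ends without H3K4me3 was therefore 3 tags per M or less, against 23 where all 3 marks met. The balance of H3K4me1 and H3K4me3, as log2 of the ratio of their tags per M, had a median of -2.27 at starts, -0.98 at far ends and 0.39 in distal regions with all 3 marks. Its 0 has no meaning, since 2 antibodies are divided, but its order between places does not depend on that. At starts and far ends only peaks that came within 1 kb were summed, but in distal regions all joined peaks were. The order of distal regions against gene ends therefore also depends on how peaks were counted.

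**Figure D2:**
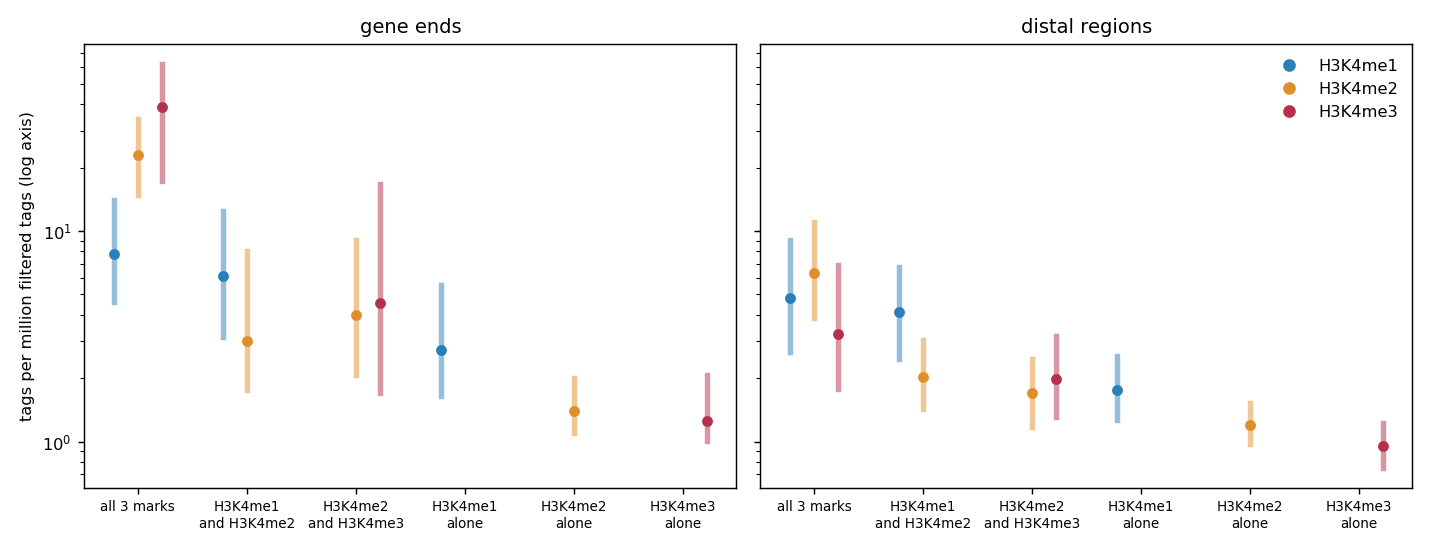
Tags per M tags of each mark (log axis) at gene ends and distal regions, by combination of marks; points are medians and bars the quartiles over places within 1 library per mark. At ends with all 3 marks the medians were 7.81 for H3K4me1, 23 for H3K4me2 and 38.8 for H3K4me3.

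Around starts with all 3 marks, H3K4me1 peaks dipped at the start base while the other marks did not. Of the 11394 such starts, the start base itself lay in an H3K4me1 peak at 60.6% (59.7 to 61.5), in an H3K4me2 peak at 97.1% and in an H3K4me3 peak at 94.7%. At 3499 starts (30.7%) H3K4me1 peaks lay on both sides and not over the base; the share was 0.395% for H3K4me2 and 0.272% for H3K4me3. Cover by H3K4me1 was 84.3% at 500 bp upstream, 60.6% at the start, 56.9% at 100 bp downstream and 88.5% at 1000 bp downstream. Cover by H3K4me2 and H3K4me3 reached 98.2% and 96.1% at 500 bp downstream. The nearest summit lay a median of 730 bp from the start for H3K4me1, 565 bp for H3K4me2 and 315 bp for H3K4me3. It was downstream of the start at 40.8%, 75.5% and 85.1% of starts. At far ends with all 3 marks, cover at the end base was 76.2% for H3K4me1, 69% for H3K4me2 and 46.6% for H3K4me3.

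**Figure D3:**
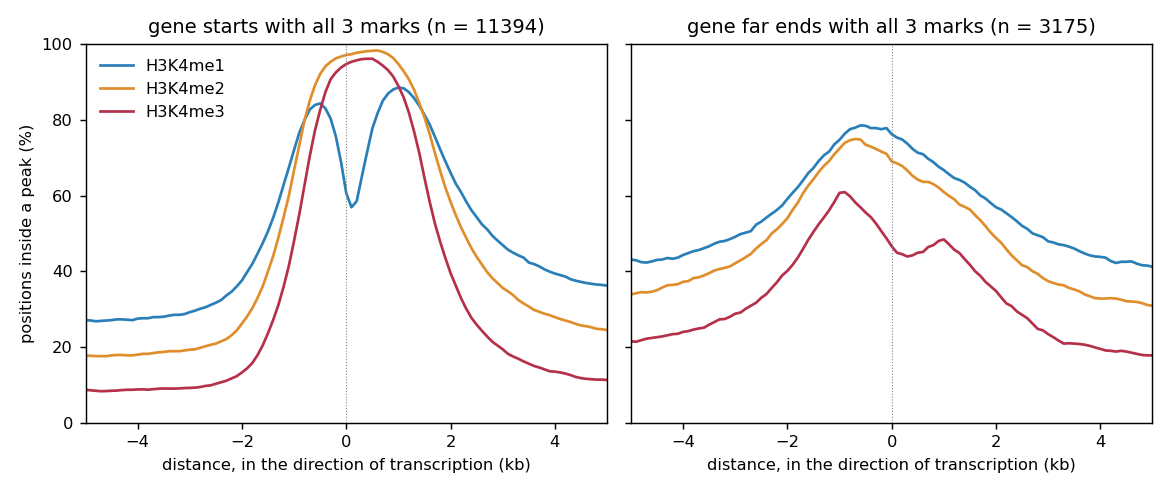
Share of gene starts and far ends with all 3 marks whose position was covered by a called peak of each mark, against distance in kb in the direction of transcription (negative is upstream). At starts, H3K4me1 cover falls to 60.6% at 0 between shoulders of 84.3% at 500 bp upstream and 88.5% at 1000 bp downstream, while H3K4me2 and H3K4me3 cover 97.1% and 94.7% of starts at 0.

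The dip went with the width of H3K4me3. When starts were split into 4 classes of like size by the width of their widest H3K4me3 peak, the start base lay in H3K4me1 at 83.7% of the narrowest class (355 to 2157 bp), 67.6% of the next (2159 to 2803 bp), 48.7% of the third (2804 to 3674 bp) and 42.4% of the widest (3675 to 22753 bp). The summed H3K4me1 level at these starts did not fall: its medians were 4.23, 6.43, 9.19 and 16.7 tags per M from the narrowest class to the widest. Classes with wider H3K4me3 thus had more tags in their H3K4me1 peaks, while a smaller share of their start bases was covered. Tags beside the base were not counted apart from those over it, nor covered starts apart from uncovered ones.

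Among the strongest genes with all 3 marks were Trim71, Smad7, Mtf2, Actn4, Klf9, Jade1 and Irf2bpl, taken by their sum of tags per M over the 3 marks. Trim71, a stem cell RNA-binding protein and ubiquitin ligase, held 17.9 tags per M of H3K4me1, 326 of H3K4me2 and 324 of H3K4me3. Mtf2, a subunit that recruits Polycomb repressive complex 2, held 98.7, 169 and 249. Smad7, the inhibitory Smad of TGF-beta signalling, held 45.4, 221 and 273, and Klf9, a Krüppel-like factor, held 43, 193 and 263. Jade1, a subunit of histone acetyltransferase complexes, held 5.64, 222 and 266. Actn4, an actin crosslinker, had the opposite weight with 250, 162 and 101. The log2 ratio of H3K4me1 over H3K4me3 was -5.56 at Jade1, -4.18 at Trim71 and 1.31 at Actn4. It counts whole peaks that come within 1 kb of the end, so it depends on where a peak was split. At Trim71 it leaves out an H3K4me1 peak of 274 tags per M that overlaps most of the H3K4me3 peak but stops short of the window. The H3K4me1 level of Jade1 was below the median of 7.78 for all genes with all 3 marks, so its place rests on H3K4me2 and H3K4me3.

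The ends of that balance were also named. The lowest ratios were at Senp6, a SUMO protease (-6.32), and Tfe3, a helix-loop-helix factor (-6.32). Auts2 (-6.21), Sgsm2 (-6.17), Arid2 of the PBAF remodelling complex (-6.17), Trim41 (-6.15), the RNA-binding protein Sfpq (-6.11) and the corepressor scaffold Sin3a (-6.09) followed. The highest were at Rsc1a1 (5.71), Lrrc2 (5.20), the complement protease Masp2 (5.06), Smim24 (5.02), the interferon-induced Ifitm1 (4.96), Rxfp4 (4.91), Pmvk of the mevalonate pathway (4.80) and Fblim1 (4.78). A gene end can take its marks from a neighbour: the H3K4me1 peak at Lrrc2 and that at Tdgf1, a Nodal co-receptor, are the same peak. The widest peaks followed different genes in each list. The widest H3K4me1 peaks at genes included those at Ccr4 (63072 bp), Zmynd8 (60679 bp), Plekha7 (50352 bp), Etv5 (49847 bp) and Tmem131 (49779 bp), with Cdh1, the E-cadherin gene, at 44597 bp. For H3K4me2 they included those at Tet1 (45962 bp), the coactivator Ncoa3 (44878 bp), Trim71 (42912 bp) and the Polycomb gene Rybp (41532 bp). For H3K4me3 they included those at Trim71 (22753 bp), Mtf2 (21078 bp), Gpbp1 (20137 bp) and Jade1 (19578 bp).

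The Trim71 locus shows how the marks divided a single domain. The gene runs on the minus strand at chr9:114511268-114564369, with its start at the higher coordinate. H3K4me3 formed a peak at chr9:114542922-114565674 and H3K4me2 a peak at chr9:114523208-114566119, both over the start and into the gene body. Further H3K4me3 peaks lay in the body, the largest at chr9:114523679-114539031 (65 tags per M). An H3K4me1 peak at chr9:114564215-114571108 held the start base near its edge and extended upstream. A second H3K4me1 peak, at chr9:114498059-114561130, was the widest of those at genes and spanned most of the Trim71 body. It overlapped most of the H3K4me3 peak at the start but stopped short of the start base. A short H3K4me1 peak at chr9:114561304-114562208 lay between these 2. The wide peak also covers the outer end of Ccr4, a T cell chemokine receptor. The peak counted at Ccr4, with 274 tags per M of H3K4me1, thus lies by length mostly over Trim71. Ccr4 had 1.15 tags per M of H3K4me2 and no H3K4me3 within the window. The authors' score of the wide peak was 161, in a list whose lowest value is 50.

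H3K4me1 with H3K4me2 was the combination of 728 genes (3.33%), read at the end of each gene with more marks. The 8 with most tags were Ccr4, Usp7, Rab25, Ppp1cc, Slc7a7, Elobl, Mkrn1 and Itgb7. Usp7, a deubiquitinase, held 162 tags per M of H3K4me1 and 8.06 of H3K4me2. Rab25, a GTPase of epithelial recycling, held 43.6 and 115 at its far end, and the phosphatase subunit Ppp1cc held 55.8 and 96.6. The H3K4me2 peak counted at Rab25, at chr3:88525211-88541875, lies outside that gene. It overlaps an H3K4me3 peak at chr3:88525723-88537708 (162 tags per M) that stops short of the 1 kb window. Mkrn1, a ubiquitin ligase, held 14.6 and 114, and Itgb7, an integrin of lymphocytes, 58.7 and 54.1. Several of these genes had all 3 marks at an annotated start inside the gene: Usp7 had 94.5, 114 and 115 there, Mkrn1 25.2, 114 and 177, and Ppp1cc 103, 96.6 and 119. Their place in this combination therefore depends on the use of the outermost ends.

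The effect of inner starts was counted over the genes for which the annotation gives starts, a part of each combination. A further annotated start with H3K4me3 was present in 152 of 569 genes with H3K4me1 and H3K4me2 (26.7%), 68 of 406 with H3K4me1 alone (16.7%), 21 of 115 with H3K4me2 alone (18.3%) and 227 of 4296 with no mark at the outer ends (5.28%). Esrrb, an orphan nuclear receptor of naive ES cells, held 6.62 tags per M of H3K4me1, 2.12 of H3K4me2 and no H3K4me3 at its outermost start, but 8.35, 28.7 and 34.5 at another. Nr5a2, a nuclear receptor that binds the Pou5f1 gene, held 32.9, 93.6 and 124 at such a start, and Dnmt3a, a DNA methyltransferase, 11.2, 25.3 and 55.3. Dpy30, a shared subunit of the H3K4 methyltransferase complexes, held 28.1, 51 and 87.7. Lifr, the receptor for LIF, held 28.5, 47.9 and 74.5, and Runx1, a regulator of blood formation, 19.3, 51.5 and 71.4. At Axin2, an inhibitor and target of Wnt signalling, H3K4me1 was low beside the other marks, with 0.922, 35 and 69.4.

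H3K4me2 with H3K4me3 and no H3K4me1 was the combination of 341 genes (1.56%). Among the strongest were Cbx3, the heterochromatin protein HP1 gamma, and Hnrnpa2b1, an RNA-binding protein, which share a divergent start and the same peaks (92.8 and 243 tags per M). Chd2, a chromatin remodeller, held 92.8 and 144, Arl6ip6 57.8 and 123, Ing2, a reader of H3K4me3, 39.7 and 141, and Zswim6 39.9 and 115. Rnd3, a small GTP-binding protein, held 44.6 and 89.8. At Cbx3, H3K4me1 peaks at chr6:51459180-51467831 and chr6:51471322-51477817 (26.8 and 18 tags per M) flanked the outer starts beyond the 1 kb window. The latter peak came within 1 kb of the RefSeq start of Cbx3, which lies inside its outer end. Of the 155 such ends with at least 10 tags per M of H3K4me3, 101 (65.2%) had an H3K4me1 peak within 5 kb, and the median distance was 2.23 kb. Cbx3 was not typical in its flanks: 22 of the 155 (14.2%) had H3K4me1 within 5 kb on both sides. Of the 317 ends below 10 tags per M, 96 (30.3%) had H3K4me1 within 5 kb, at a median distance of 12.1 kb, and 19 (5.99%) had it on both sides.

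H3K4me1 alone was the combination of 522 genes (2.38%). Apoc4, an apolipoprotein gene of the liver, held 87 tags per M in 2 peaks, Uchl4 53.4, Gipc1 48.4, the acute-phase gene Saa2 44.3, Acsbg2 43.7, Sparcl1 43.5, Siglecf, a lectin of eosinophils, 32.8, and Iqgap1, a scaffold protein, 28.6. Apoc4 lies between Clptm1 and Apoe, which both had all 3 marks, and most of its tags were in the peak at chr7:19682289-19704156 (82.8). The other peak, at chr7:19679198-19681945 over the start, held 4.26. H3K4me2 alone was the combination of 148 genes (0.676%), led by Proca1 (17.5 tags per M), the photoreceptor factor Nrl (14.4), Col6a5 (6.49) and Tmprss3 (4.42), against a median of 23.9 at genes with all 3 marks. Proca1, Col6a5 and Tmprss3 also had all 3 marks at an inner annotated start.

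H3K4me3 alone was the combination of 15 genes (0.0685%) and H3K4me1 with H3K4me3 that of 2 (0.00914%). Brox had the most of these 15, with 81.8 tags per M (exact 95% Poisson interval 78.4 to 85.5) in a peak of 3684 bp at chr1:183295254-183298937 over the starts of Brox and Aida. The nearest H3K4me1 and H3K4me2 peaks were at chr1:183289028-183291513 and chr1:183289139-183291333. Of the other genes with H3K4me3 alone, Asmt, an enzyme of melatonin synthesis, held 8.27, and Dnaaf6, Usp9y, Srp54b, Msr1, Vmn2r29 and Vmn1r48 held between 1.23 and 2.22. Senp7 and Ms4a19, the pair with H3K4me1 and H3K4me3, held 1.14 and 1.11 tags per M of H3K4me1 and 0.752 each of H3K4me3. No mark lay at either end of 5266 genes (24.1%).

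Stem cell gene lists were read next, with the share of all genes given above as the background. All 3 marks lay on 14 of 14 core pluripotency genes and on 14 of 16 naive pluripotency genes (67.9% of all genes), and Esrrb and Nr5a2 were the exceptions. Sox2, a core pluripotency factor, held 40 tags per M of H3K4me1, 108 of H3K4me2 and 252 of H3K4me3. Nanog held 37.6, 110 and 172. Pou5f1 held 72.7, 94.9 and 116, in peaks over its start that also came within 1 kb of its far end. Klf4, a Krüppel-like factor of naive cells, had little H3K4me1 beside its other marks, with 4.58, 74.8 and 213. Tfcp2l1, another naive factor, had most H3K4me1, with 123, 52.8 and 81.8. Over the core list the medians were 38.8, 85.7 and 115 tags per M, and over the naive list 38.2, 51.8 and 69.2, against 7.78, 23.9 and 42.8 for all genes with all 3 marks. Formative and primed genes had all 3 marks in 11 of 13 cases, with medians of 22.6, 43.7 and 52.2.

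Lineage regulators carried the same combination at lower levels than the core pluripotency genes. Transcription factor genes of the neural lineage had all 3 marks in 16 of 16 cases (medians 10, 26.6 and 25.6 tags per M), and genes of the 4 Hox clusters in 39 of 39 (10.6, 23.8 and 25). The share over all genes was 67.9%. Among the Hox genes, Hoxa2 was highest (40.4, 72.7 and 83.3) and Hoxc8 lowest for H3K4me1 and H3K4me2 (2.74, 8.11 and 7.88), while Hoxd12 was lowest for H3K4me3 (10.7, 17.9 and 3.72). Olig2, a neural factor, was high in all 3 marks, with 49.2, 108 and 76.1. Primitive streak and mesoderm genes had all 3 marks in 15 of 16 cases, with Tbx5 at H3K4me2 and H3K4me3 (4.22 and 2.14), primitive endoderm genes in 9 of 11 and trophectoderm genes in 10 of 12. Whether these genes were transcribed was not measured here. The median log2 ratio of H3K4me1 over H3K4me3 was -0.88 for naive genes, -1.30 for Hox genes and -1.41 for core genes, above the median of -2.25 for all genes with all 3 marks. This was not particular to them: blood and endothelial genes (-1.24), germline genes (-1.33) and products of differentiated tissues (-1.22) were also above it. Ribosomal protein (-2.51), Polycomb (-2.49) and H3K4 demethylase (-3.01) genes were among the lists below that median of -2.25.

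Genes that every cell uses lay on either side of that median. All 3 marks lay on 15 of 16 housekeeping genes (medians 26.7, 53.9 and 109 tags per M, ratio -2.05) and on 82 of 84 cytosolic ribosomal protein genes (18.8, 55.8 and 105, ratio -2.51). The share over all genes was 67.9%. Hsp90ab1, a chaperone, was the housekeeping gene with most H3K4me1 (169, 102 and 151), and Gapdh held 29.5, 77.4 and 141. The exception among the 16, Ldha, had all 3 marks at an inner start (19.6, 43.3 and 62.3). The genes of the H3K4 machinery carried all 3 marks as well, with 15 of 16 methyltransferase and subunit genes (ratio -2.39) and 7 of 7 demethylase genes (-3.01). Polycomb genes had all 3 marks in 16 of 16 cases (-2.49). Kmt2a, which is the Mll1 gene itself, held 5.18 tags per M of H3K4me1, 50.6 of H3K4me2 and 107 of H3K4me3. Kmt2d held 2.39, 50.3 and 106, Setd1b 39.8, 139 and 208, and the demethylase gene Kdm5b 3.25, 114 and 127. Growth signalling genes had all 3 marks in 18 of 20 cases and imprinted genes in 18 of 20, with Igf2 and Snrpn unmarked at the outer ends and marked at inner starts. With the lists cut to equal length, 8 of the 20 imprinted genes had all 3 marks. Over all gene ends, the count with all 3 marks fell from 18340 to 14279 under that cut.

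**Figure D4:**
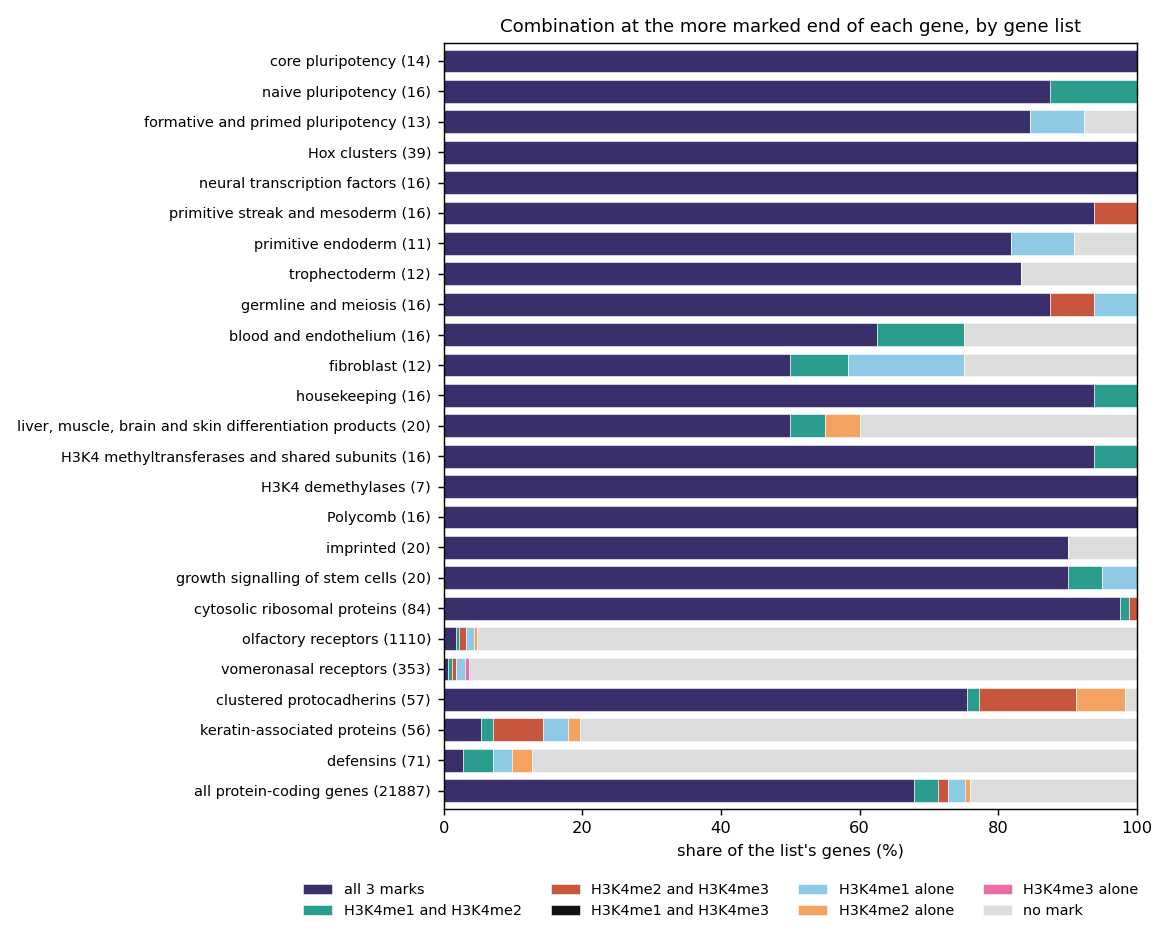
Share (%) of the genes of each list (number of genes in brackets) that held each combination of marks at the more marked end, with all protein-coding genes in the lowest bar. Core pluripotency, Hox, neural, demethylase and Polycomb lists are at 100% all 3 marks, all genes at 67.9%, and 95.1% of olfactory receptor genes have no mark.

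Genes without marks were common among products of differentiated tissues and in large tandem families. Of 20 genes for products of liver, muscle, brain and other differentiated tissue, 10 had all 3 marks and 8 had none (24.1% of all genes), among them Alb, Fgb, Myh1, Myh2, Ins2, Gcg and Cyp2e1. Ttr, the thyroxine carrier, had H3K4me1 and H3K4me2 (6.16 and 2), and the keratin gene Krt5 had H3K4me2 alone (1.37). Of those with all 3 marks, Mbp, a myelin protein gene, held 10.4, 22.5 and 24.6 tags per M and Fga, a fibrinogen chain gene, 1.44, 2.32 and 1.27. Blood and endothelial genes had all 3 marks in 10 of 16 cases, germline genes in 14 of 16 and fibroblast genes in 6 of 12. The share over all genes was 67.9%. With the lists cut to equal length the blood, germline and fibroblast counts were 5, 7 and 6, and that of the 20 differentiation products was 6. Over all gene ends, the count with all 3 marks also fell under this cut, from 18340 to 14279. No mark lay on 1056 of 1110 olfactory receptor genes (95.1%) and 340 of 353 vomeronasal receptor genes, while 20 and 2 of them had all 3. Clustered protocadherin genes, which give neurons their surface identity, had all 3 marks in 43 of 57 cases and H3K4me2 with H3K4me3 in 8 (1.56% of all genes). Keratin-associated protein genes had that combination in 4 of 56 cases, and members of such families share sequence, so tags there can be misplaced between copies.

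The combinations lay on starts of different base composition. The CpG ratio (observed over expected CG dinucleotides, over 250 bases before to 50 after the start) was read for 15752 of the 17492 starts, those with a RefSeq start within 1 kb. Its median was 0.76 at starts with all 3 marks (quartiles 0.57 to 0.91, n = 10467), 0.52 with H3K4me2 and H3K4me3 (n = 230), 0.21 with H3K4me1 and H3K4me2 (n = 350), 0.28 with H3K4me2 alone (n = 74), 0.17 with H3K4me1 alone (n = 266) and 0.14 with no mark (n = 4351). H3K4me3 alone had 0.66, over 12 starts. H3K4me1 with H3K4me3 was found at 2 of these starts (median 0.26). Apart from that pair, combinations with H3K4me3 had medians of 0.52 or more, and those without it 0.28 or less. Single genes departed from this: the ratio was 0.19 at Nanog, with all 3 marks, and the printed windows of Nanog and Alb hold 1 and 2 CG.

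**Figure D5:**
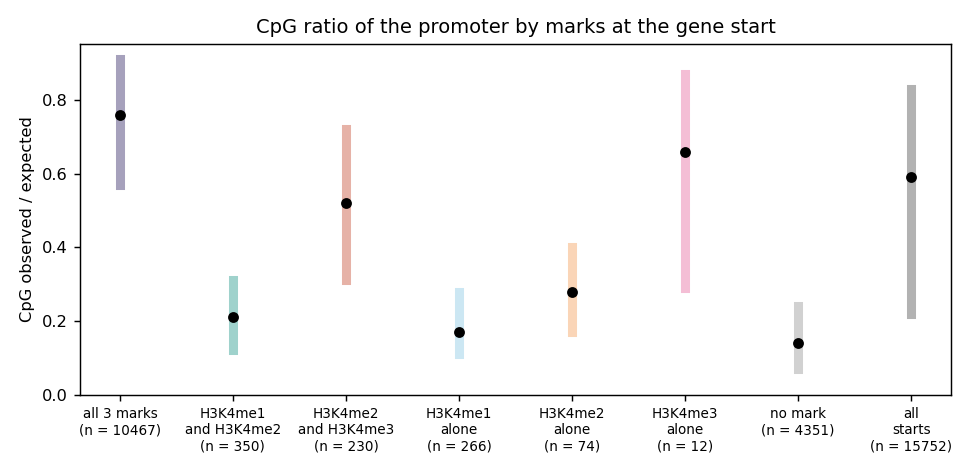
CpG ratio of the 300 bases around gene starts by combination of marks; points are medians and bars the quartiles over starts. Starts with all 3 marks have a median of 0.76, those with H3K4me1 and H3K4me2 0.21 and those with no mark 0.14.

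Short motifs were counted in the same 300 bases. GGGCGG, the GC box letters, was present on either strand in 66.3% of starts with all 3 marks, 48.3% with H3K4me2 and H3K4me3, 17.1% with H3K4me1 and H3K4me2, 14.3% with H3K4me1 alone and 4.62% with no mark, against 46.7% of all starts. TATAAA, the TATA box letters, was present in 6.91% of starts with all 3 marks, 17% with H3K4me2 and H3K4me3, 15.7% with H3K4me1 and H3K4me2, 16.9% with H3K4me1 alone and 29.2% with no mark, against 13.7% of all. CACGTG, the E-box letters, was present in 10.4%, 5.65%, 4.57%, 6.39% and 2.69% of these, against 8.01% of all. The order of the middle combinations thus differed between motifs. GGGCGG and CACGTG hold a CG and so are not independent of the CpG ratio; a match is a string of letters, not a bound site.

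Away from gene ends, H3K4me1 alone was the commonest combination in the deposited lists. Peaks of the 3 lists were joined where they overlapped, which gave 122837 regions, of which 103009 lay more than 1 kb from any protein-coding gene end. H3K4me1 was alone on 39569 (38.4%), with H3K4me2 on 27422 (26.6%), and all 3 marks lay on 23611 (22.9%). With the lists cut to equal length this order turned, with 14647 regions of all 3 marks and 14076 of H3K4me1 alone. In the deposited lists H3K4me2 with H3K4me3 held 6913 (6.71%), H3K4me2 alone 4256 (4.13%), H3K4me3 alone 1221 (1.19%) and H3K4me1 with H3K4me3 17 (0.0165%). Median widths were 2476 bp with all 3 marks, 2143 bp with H3K4me1 and H3K4me2, 1298 bp with H3K4me1 alone, 1036 bp with H3K4me2 and H3K4me3 and 566 bp with H3K4me3 alone. The median distance to a gene end was 18.4 kb with all 3 marks, 23.4 kb with H3K4me1 and H3K4me2 and 25.4 kb with H3K4me1 alone, against 65.1 kb with H3K4me2 and H3K4me3 and 101 kb with H3K4me3 alone. H3K4me2 alone had a median width of 960 bp and lay 28.2 kb from a gene end, close to the 24.5 kb of all distal regions. The combinations with H3K4me3 and without H3K4me1 were thus narrow and the farthest from genes of those with over 1000 regions.

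The distal regions with all 3 marks partly lay at starts that the gene-end rule does not count. A start of a long non-coding RNA lay near 7.36% of them, against 3.51% of all distal regions, and a further start of a protein-coding gene near 5.12%, against 1.59%. Chromosome 18 has no starts in the annotation and was left out, so these shares are over 22784 and 99462 regions. Inside gene bodies (52679 regions) H3K4me2 with H3K4me3 made up 3.96% and between genes (50330 regions) 9.59%. All 3 marks made up 23.1% and 22.7% in these places.

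The strongest distal regions with all 3 marks included 1 in the body of Myo10, a myosin gene, at chr15:25749131-25792560 (194, 189 and 127 tags per M) and 1 in the body of Dlc1, a GTPase-activating protein gene, at chr8:36576601-36615835 (157, 169 and 159). Others were at chr19:5792425-5813225 over Malat1, an abundant nuclear non-coding RNA (58.8, 127 and 308), and at chr13:23496822-23522837 near Btn2a2 (64.9, 176 and 240), which overlaps 12 tRNA genes. H3K4me1 with H3K4me2 was strongest in the body of Msi2, an RNA-binding protein gene, at chr11:88643637-88673598 (103 and 31.7) and in the body of Fnbp1 at chr2:31085512-31102549 (73.2 and 34.4). H3K4me1 alone was strongest in the body of Tmem267 at chr13:119595373-119603357 (70.5) and at chr3:8244400-8247207, between genes (21.6), and each of these overlaps 3 peaks of the Mll1 library. Regions where misplaced tags gather were not filtered out, and the part of such tags here was not tested. H3K4me2 alone was strongest in the body of Tet1, a 5-methylcytosine oxidase gene (34.6), and in the body of Rybp (28.7).

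Of the 4 strongest distal regions with H3K4me2 and H3K4me3, 2 overlap a pseudogene and 2 lie in gene bodies. The region with most tags, chr17:39842501-39849354 (231 and 309 tags per M), overlaps Rn18s-rs5, a pseudogene related to 18S ribosomal RNA, and the part of tags from other copies of that sequence was not tested. The third overlaps Pisd-ps2, a transcribed pseudogene near Scaf8 (54 and 89.2), and the fourth lay in the body of Impact (23 and 53.2). The second lay in the body of Esrrb at chr12:86462532-86499657, where H3K4me2 formed 1 peak of 37126 bp (216) and H3K4me3 a peak of 18067 bp (196). H3K4me1 peaks ended at position 86457332 before it and resumed at 86500155 after it, with a peak of 23657 bp (88.3). A stretch with strong H3K4me2 and H3K4me3 and no called H3K4me1 was thus bounded by H3K4me1 on both sides within this gene.

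The X chromosome differed from the autosomes. Of its 817 starts with strand, 436 (53.4%) had H3K4me3, and of these 346 (79.4%, 75.3 to 83.1) had H3K4me1. On the autosomes other than chromosome 18, 11227 of 16457 starts (68.2%) had H3K4me3, and of these 11047 (98.4%, 98.1 to 98.6) had H3K4me1. Starts with H3K4me2 and H3K4me3 numbered 87 on X and 173 on the autosomes together. At starts with all 3 marks the median density on X was 1.35 tags per M per kb of peak for H3K4me1, 4.05 for H3K4me2 and 10.2 for H3K4me3, against 2.17, 6.4 and 15 on the autosomes. All 3 marks were therefore lower per kb on X. These values were not corrected for the number of copies of a chromosome. Peaks were also called on Y, with 19 distal regions, and the part of copy number in the X values was not tested. Among distal regions, X held 2.03% of all, 1.39% of those with all 3 marks, 5.66% of those with H3K4me2 and H3K4me3 and 15.2% of those with H3K4me3 alone.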

How the data were processed

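The authors precipitated chromatin of untreated cells with antibodies to H3K4me1, H3K4me2 and H3K4me3 and sequenced 1 library each. Per the file headers, peaks were called with MACS 1.4.2 against 1 input library with a p cutoff of 1e-05 and a band width of 300 bp; the submitters' processing notes name Bowtie2, SAMtools 1.5, MACS2 and mm10, so the sources differ on the caller's version. Peak counts, as deposited, are tags left after duplicates were dropped. The authors' score is 10 times the negative log10 of a peak's p-value (lowest 50), their ratio is fold enrichment, and their percent is a false discovery rate. The ratio was not used. The share of duplicate tags was 0.39 for H3K4me1, 0.40 for H3K4me2 and 0.60 for H3K4me3, and all duplicates were dropped, which limits tall narrow peaks most. The fold and score depend on depth, so marks were compared by position.

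Peaks on the 19 autosomes, X and Y were assigned to gene ends of RefSeq GRCm38 genes within 1 kb, with an overlap of at least 1 bp. Levels are summed tags of those peaks, or of all joined peaks of a distal region, per 1000000 filtered tags. A gene took the combination of its more marked end (ties by H3K4me3, then H3K4me2, then H3K4me1 tags, then the end at the higher coordinate). Named genes were the 8 with the highest sum of tags per M over the marks of each combination, passing over symbols made of Gm and digits or ending in Rik, the 8 with the widest peak of each mark, and the 8 highest and lowest ratios of genes with at least 10 tags per M of the leading mark; the 4 strongest distal regions were taken likewise; genes with inner starts, loci and printed starts were chosen after values were seen. The members and the gene lists were chosen with earlier results of these data known. Intervals are exact at 95% (Clopper-Pearson for shares, Poisson for tags) and cover counting error only. The assignment was tested on simulated peaks. Python 3.11.15, pandas 2.3.3, numpy 2.4.6, scipy 1.17.1 and matplotlib 3.10.9 were used. Some genes that these rules name are not reported here.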

Additional observations from a re-analysis of the deposited data

How the results depend on the processing

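No replicate could be left out, since each mark is 1 library. No paired analysis was possible because each group is 1 library and no result comes from a test. Over 275 recomputed values, 201 stayed within their counting interval or, for counts, within 1.5 times, and 74 moved. A reversal of sign was defined for the log2 ratio only, which stayed negative (-2.14 and -1.73). A change of order between counts was not part of this tally. A false discovery rate of at most 1%, 200 bp inside the window, joining from 200 bp and a 5 kb distance for distal regions moved none of the recomputed values. The 1% rate could change little, because the highest rate was 0.77% for H3K4me1 and 0.87% for H3K4me3. It dropped peaks of H3K4me2 only, leaving 88712 of 89538, and it gave 34 of the 201 values that stayed. With a 500 bp window, 797 gene ends had H3K4me2 and H3K4me3 and 5 had H3K4me1 and H3K4me3, with a CpG ratio of 0.74 for H3K4me2 with H3K4me3; with 2 kb, 5 ends had H3K4me1 and H3K4me3. With peaks of a mark within 1 kb joined, the widths at gene ends and away from them were 3734 and 1790 bp for H3K4me1, 3308 and 1485 bp for H3K4me2, and 2644 and 1130 bp for H3K4me3.

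With a score of at least 100, 874 ends had H3K4me2 and H3K4me3, 1 had H3K4me1 and H3K4me3, and 10 distal regions had H3K4me1 and H3K4me3. Widths were 2283 and 2008 bp for H3K4me1, 3064 and 1642 bp for H3K4me2, and 2565 and 1237 bp for H3K4me3. Median tags per M at gene ends were 8, 23.7 and 40.4 for all 3 marks, 7.29 and 4.29 for H3K4me1 and H3K4me2, 7.03 and 10.3 for H3K4me2 and H3K4me3, and 3.77 for H3K4me1 alone. In distal regions they were 5.53, 7.89 and 4.39, then 5.23 and 2.82, then 2.3 and 2.61, and 2.58. The log2 ratio was -2.14, the CpG ratios 0.76 for all 3 marks and 0.57 for H3K4me2 and H3K4me3, and the start base lay in H3K4me1 at 58.1% and in H3K4me3 at 95.1% of starts.

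With the 3 lists cut to 52912 peaks each, gene ends numbered 1234 for H3K4me1 and H3K4me2, 4280 for H3K4me2 and H3K4me3, 26 for H3K4me1 and H3K4me3, 1662 for H3K4me1 alone and 254 for H3K4me3 alone. Distal regions numbered 14647 for all 3 marks, 6829 for H3K4me1 and H3K4me2, 203 for H3K4me1 and H3K4me3, 14076 for H3K4me1 alone, 1057 for H3K4me2 alone and 6910 for H3K4me3 alone, so that all 3 marks passed H3K4me1 alone. Of the 293 list genes 205 had all 3 marks, against 254 with the lists as deposited. The start base lay in peaks at 50.1%, 97.8% and 95.6% of starts. This cut removes weak peaks of H3K4me1 and H3K4me2 and keeps all of H3K4me3. Per M tags inside peaks, medians at gene ends were 12.3, 32.3 and 47 for all 3 marks, 9.61 and 4.2 for H3K4me1 and H3K4me2, 5.56 for H3K4me2 with H3K4me3, and 4.25 for H3K4me1 alone. In distal regions they were 7.53, 8.82 and 3.94, then 6.47 and 2.83, then 2.38 and 2.4, and 2.77, and the log2 ratio was -1.73.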

Other observations

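Peaks of the untreated Mll1 library were set beside the combinations. That library is weak, with 4004 peaks that hold 0.285% of its tags. A Mll1 peak overlapped 883 of the 18340 gene ends with all 3 marks (4.81%, exact Clopper-Pearson interval 4.51 to 5.13) and 20 of the 19225 ends with no mark (0.104%). In distal regions the shares were 3.71% with all 3 marks, 1.2% with H3K4me1 and H3K4me2 and 0.334% with H3K4me1 alone.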
